A study of Mus musculus with 32 samples.

Results

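The genes of the basement membrane and of its assembly were followed while mouse embryonic stem (ES) cells were driven toward primitive endoderm (PrE). The list holds 34 genes, picked by name as collagen IV chains, laminin chains, linkers and proteoglycans, matrix receptors and collagen-modifying enzymes, and each has 1 row among the 54233 genes of the table. They were picked with earlier results of these data known. KH2 ES cells of strain C57BL/6, with the transgene TRE:GATA6-DSREd2 in which a Tet-responsive element drives GATA6 when doxycycline (Dox) is given, were sampled at 0, 2, 4, 8, 16, 24, 48 and 96 h, with 4 replicates at each time. The 0 h cells were in 2i medium with LIF and no Dox, and the later cells were moved to serum medium with LIF and Dox at 1 ug/mL, which was withdrawn after 12 h for the samples of 16 h and later. All groups carry the transgene and none was kept in serum without Dox, so medium, Dox and time cannot be told apart in a comparison with 0 h. All comparisons with 0 h share the same 4 samples.

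A basement membrane is a thin sheet of extracellular matrix on which epithelia rest. Laminin trimers of an alpha, a beta and a gamma chain polymerise at the cell surface, and a collagen IV network, nidogens and the heparan sulfate proteoglycan perlecan join them. PrE and its parietal derivative are known for making much of this material, including the thick Reichert's membrane of the rodent embryo.

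Libraries held between 3190108 and 12301732 reads on genes, with a median of 8870663. Replicates 1 and 2 formed one set and 3 and 4 another, with a median chi-square per degree of freedom over genes of 1.59 for pairs within a set and 11.4 between sets, so values within each set are given beside calls that missed the 4-fold limit in a set and beside some other changes that differed between the sets. The study describes its replicates as biological and handled independently, and the labels do not say what sets the pairs apart, so p-values measure the spread between these samples. The tests treat the 4 samples of a time point as independent. If samples within a set are not, the p-values overstate the evidence. By the test described below, 5 of 5 PrE markers were called higher and 3 of 5 ES cell markers lower at 48 h, and Gata4, a PrE transcription factor, went from 26 ± 9.14 normalized counts (reads scaled to a common library size) at 0 h to 5738 ± 861 (SD, n = 4). The summed level of 9 fibroblast or feeder markers, cells that also make matrix, ran from 11.3 to 13.8 at 0 h, 3.77 to 12.4 after 48 h and 8.51 to 21 after 96 h, with Col3a1, Lum and Dcn at 0 in every 48 h and 96 h sample. Postn, also on that list, was at 0 in every 0 h sample and ran from 1.26 to 18.9 at 96 h, the highest 96 h mean of the 9. In bulk samples, fewer cells of a type and less RNA per cell cannot be told apart.

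Col4a1 and Col4a2, which encode the chains of the most widespread collagen IV trimer, lie head to head on chromosome 8 (GRCm38), Col4a1 at chr8:11198423-11312826 on the minus strand and Col4a2 at chr8:11312805-11449287 on the plus strand, with starts 21 bases apart. Their promoter windows (250 bases before to 50 after the start, from RefSeq on GRCm38.p6, which held windows for 23 of the 34 genes) are printed because this pair was called first and reached the largest fold, beside those of Lamb1, a laminin chain that rose, and Lama5, one that fell. The windows are chr8:11312777-11313076 (minus) for Col4a1, chr8:11312555-11312854 (plus) for Col4a2, chr12:31265043-31265342 (plus) for Lamb1 and chr2:180225810-180226109 (minus) for Lama5, each read 5′ to 3′ in the direction of its gene. Capitals mark every match on either strand to GATAA, a form of the core that GATA factors bind, to CCAAT, or to GGGCGG, the GC box. Other forms of that core were not marked or counted.
Col4a1: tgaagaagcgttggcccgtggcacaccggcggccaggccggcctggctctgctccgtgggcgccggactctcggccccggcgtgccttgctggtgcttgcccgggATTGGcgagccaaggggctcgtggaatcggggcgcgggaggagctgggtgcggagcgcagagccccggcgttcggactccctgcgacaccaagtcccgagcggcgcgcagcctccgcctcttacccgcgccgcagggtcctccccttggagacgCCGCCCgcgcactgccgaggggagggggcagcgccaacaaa
Col4a2: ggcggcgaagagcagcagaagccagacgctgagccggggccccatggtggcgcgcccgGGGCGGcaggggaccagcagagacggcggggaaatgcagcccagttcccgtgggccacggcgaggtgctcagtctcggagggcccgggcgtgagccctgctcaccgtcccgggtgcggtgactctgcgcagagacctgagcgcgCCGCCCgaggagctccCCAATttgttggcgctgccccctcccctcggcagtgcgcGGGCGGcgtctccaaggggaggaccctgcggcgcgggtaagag
Lamb1: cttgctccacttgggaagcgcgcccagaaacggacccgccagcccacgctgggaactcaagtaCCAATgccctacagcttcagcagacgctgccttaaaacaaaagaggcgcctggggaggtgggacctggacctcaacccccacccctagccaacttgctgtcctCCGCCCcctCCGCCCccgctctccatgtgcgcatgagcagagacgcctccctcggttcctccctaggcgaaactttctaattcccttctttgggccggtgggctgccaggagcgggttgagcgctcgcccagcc
Lama5: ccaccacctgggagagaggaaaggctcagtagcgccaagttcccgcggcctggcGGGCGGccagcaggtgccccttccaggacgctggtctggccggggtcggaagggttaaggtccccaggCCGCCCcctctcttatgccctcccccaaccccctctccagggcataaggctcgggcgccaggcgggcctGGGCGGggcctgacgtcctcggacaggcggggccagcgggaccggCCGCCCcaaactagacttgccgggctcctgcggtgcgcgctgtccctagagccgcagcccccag
The first pair of windows shares 78 bases, read from opposite strands. GATAA was in none of these 4 windows and in 2 of the 30 windows of listed genes, those of Ddr1 and Lama2, while 25.4% of all 32851 windows in the RefSeq table held it. CCAAT was in the windows of Col4a1, Col4a2 and Lamb1 and not in that of Lama5. It was in 10 of the 30 windows of listed genes and in 37.4% of all windows. GGGCGG was in all 4, in 21 of the 30 windows of listed genes and in 35.7% of all windows. Its match in the Col4a1 window lies in the 78 shared bases and so is also a match of Col4a2. These are matches of letters in a short window, and a missing match says nothing of sites elsewhere.

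The number of genes called at each time gives the course of the set. A gene was called when limma gave a false discovery rate (FDR, the adjusted p) under 0.1 and a change of at least 4-fold, which is 2 on the log2 scale of normalized counts plus 1 used throughout. Of the 34 genes, 26 reached 10 normalized counts in at least 4 samples and were tested, among 15227 genes in all. At 2 h limma called 0 of the 34 higher (2.00% of all tested genes were) and 0 lower (0.348%), and limma-voom at the same limits called 0 in either direction. Without the 4-fold limit, 10 were higher and 1 lower at an FDR under 0.1, as at an unadjusted limma p under 0.05. The shares of all tested genes without that limit are not given here, so those counts describe the list alone. Against 0 h, 2 were higher at 4 h (2.69% of tested genes), 4 after 8 h (3.40%), 9 after 16 h (4.03%), 12 after 24 h (4.85%), 14 after 48 h (8.48%) and 15 after 96 h (9.28%). Genes called lower came later, with 2 at 24 h (4.34% of tested genes), 4 after 48 h (7.09%) and 4 after 96 h (10.3%). Thus 44.1% of the 34 genes were called higher at 96 h and 11.8% lower. Over the 26 tested genes, the denominator of the share of all tested genes, these are 57.7% and 15.4%. The median log2 fold change over the 34 genes, untested ones included, was 1.29 at 48 h and 1.66 after 96 h, beside -0.02 and -0.03 over all tested genes. The list was chosen with earlier results of these data known. These shares and medians therefore describe it and are no test of it against all genes.

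**Figure D1:**
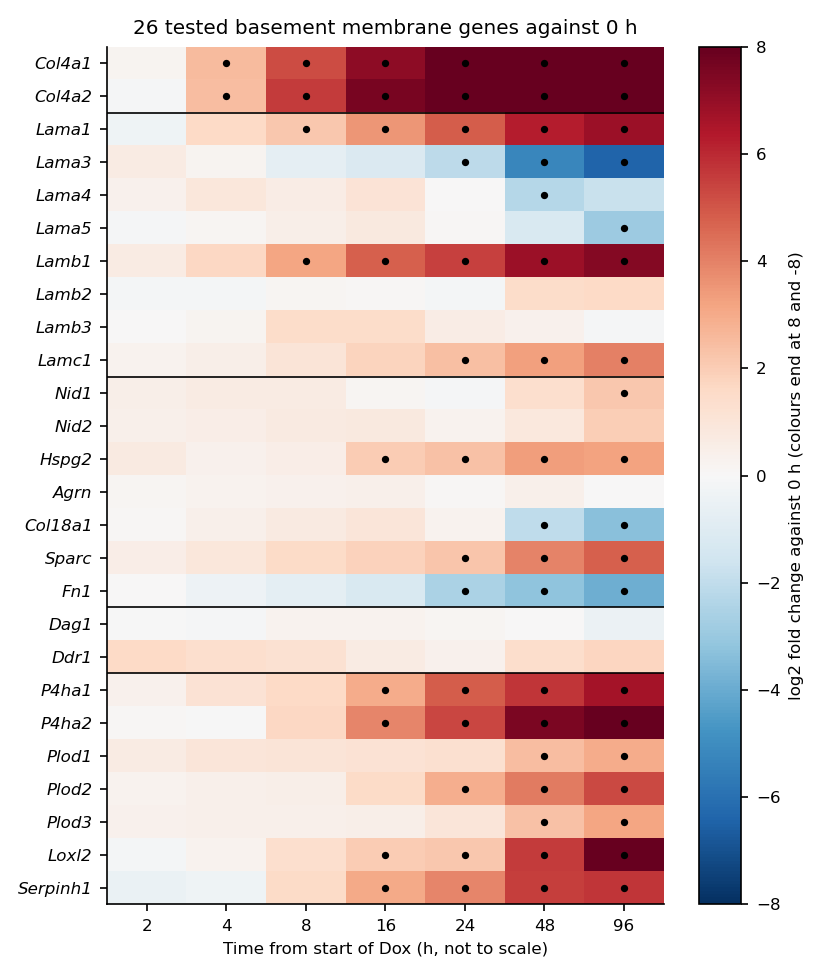
Log2 fold change against 0 h (colour) for the 26 tested genes, grouped by role, at each time point, from limma over 4 samples a group, with a dot where a gene was called. Dots begin at 4 h with Col4a1 and Col4a2 and mark 14 higher and 4 lower genes at 48 h, including all 7 tested collagen-modifying genes.

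Between successive time points few genes were called before 24 h. From 2 to 4 h 2 rose (0.558% of tested genes), Col4a1 and Col4a2, and from 4 to 8 h the same pair was called (2 genes, 0.565%). From 8 to 16 h, the interval in which Dox was withdrawn, 1 rose (0.499%), P4ha2, with Col4a2 at 1.96 and Col4a1 at 1.92 on the log2 scale. That count was 0 without 8 h replicate 1 or 2 or 16 h replicate 3 or 4, 2 without 8 h replicate 3 or 16 h replicate 2, and 3 without 16 h replicate 1. From 16 to 24 h limma called 0 higher (0.525% of tested genes) and 0 lower (0.729%), and limma-voom at the same limits called 0 in either direction. Without the 4-fold limit, 8 were higher and 7 lower at an FDR under 0.1, and 9 and 7 at an unadjusted limma p under 0.05. For these counts too, the shares of all tested genes are not given here. From 24 to 48 h 4 rose (2.51%), Col4a1, Col4a2, P4ha2 and Loxl2, and 3 fell (1.41%), Lama3, Lama4 and Col18a1. Without 24 h replicate 1, or without 24 h replicate 2, 2 genes rose in that interval, Col4a1 and Loxl2, with Col4a2 at 1.89 and 1.96 and P4ha2 at 1.98 and 1.99. Col4a2 also missed the limit without 48 h replicate 3 (1.86) or 4 (1.85). Within replicates 1 and 2 the steps of Col4a1 (1.98), Col4a2 (1.85) and Lama4 (-1.99) were under the 4-fold limit, as was that of P4ha2 within 3 and 4 (1.85). From 48 to 96 h 1 rose (1.30%), Loxl2.

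The 34 genes took a growing share of the reads. At 0 h they held 0.339, 0.461, 0.642 and 0.675% of reads on genes in replicates 1 to 4. At 48 h the share was 3.71, 3.96, 5.86 and 5.89%, and at 96 h it was 6.69, 6.41, 8.13 and 7.73%. These 3 groups of samples did not overlap, and replicates 3 and 4 lay above 1 and 2 in each. Col4a1 and Col4a2 together went from 0.000854 ± 0.000121% at 0 h to 1.89 ± 0.251% after 96 h, and Lama1, Lamb1 and Lamc1 together from 0.0947 ± 0.0305% to 2.68 ± 0.314% (SD, n = 4).

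**Figure D2:**
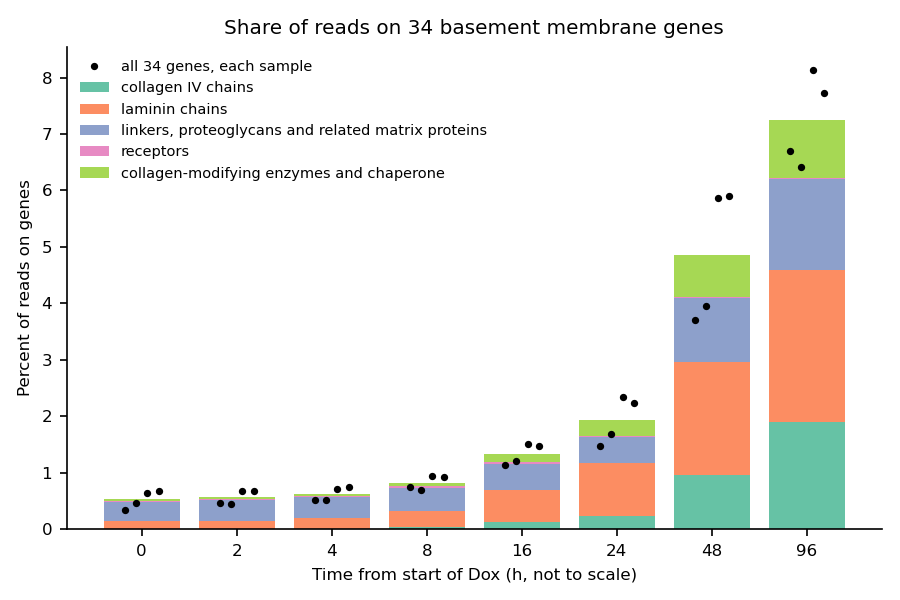
Percent of reads on genes that fell on the 34 basement membrane genes at each time point, with stacked bars for the mean of each role over 4 samples and dots for the sum in each sample. The sum lies below 0.7% in every 0 h sample and between 6.41 and 8.13% at 96 h, where laminin chains are the largest part of the bar.

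Collagen IV, the network-forming collagen of basement membranes, was represented by Col4a1 and Col4a2. Col4a1 stood at 60.7, 47.6, 41.9 and 34 normalized counts in the 4 replicates at 0 h, at 258, 329, 253 and 248 after 4 h, and at 1707, 1703, 1822 and 1762 after 8 h. Every 4 h sample lay above every 0 h sample and below every 8 h sample. Its log2 fold change against 0 h was 2.56 ± 0.19 (SE) at 4 h and 5.25 ± 0.19 after 8 h, with limma adjusted p of 2.7e-12 and 6.0e-20. After Dox was withdrawn Col4a1 held 36331, 41188, 73013 and 75093 normalized counts at 48 h and 112699, 105005, 141843 and 131869 after 96 h, with no overlap of the groups. The log2 fold change against 0 h was 10.18 ± 0.19 at 48 h (limma adjusted p = 6.6e-28), with 9.46 within replicates 1 and 2 and 10.90 within 3 and 4, and 11.37 ± 0.19 after 96 h. The Col4a1 mean was 9.91% of its 96 h mean at 24 h and 45.9% after 48 h.

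Col4a2 followed a like course from a lower start. It held 13.8, 20.4, 21 and 17 normalized counts at 0 h, 97.9, 92.1, 106 and 122 after 4 h, and 13387, 15229, 32328 and 32686 after 48 h. The groups did not overlap, and at 48 h replicates 3 and 4 lay well above 1 and 2. The log2 change of Col4a2 from 0 h was 2.48 ± 0.24 at 4 h, 10.16 ± 0.24 after 48 h and 11.29 ± 0.24 after 96 h (limma adjusted p of 1.4e-09, 6.2e-25 and 2.6e-26). At 48 h the sets gave 9.65 (replicates 1 and 2) and 10.68 (3 and 4). The log2 ratio of Col4a1 to Col4a2 normalized counts was 1.29 ± 0.52 at 0 h, 1.31 ± 0.14 after 48 h and 1.37 ± 0.07 after 96 h (SD, n = 4). Neither step was called, with differences of 0.02 from 0 to 48 h (exact permutation test, two-sided p = 0.97, adjusted over 12 ratio tests p = 0.97) and 0.06 from 48 to 96 h (exact p = 0.46, adjusted p = 0.50). The first difference was -0.18 within replicates 1 and 2 and 0.22 within 3 and 4. Per kilobase of exon, the level of Col4a1 was 2.21 ± 0.221 times that of Col4a2 at 48 h.

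The other collagen IV chains, Col4a3, Col4a4, Col4a5 and Col4a6, known from the kidney and other specialised membranes, did not reach the level for testing. Col4a5 had at most 4 reads in any of the 32 samples, Col4a4 at most 2, and Col4a3 and Col4a6 at most 1. They thus stayed at a few reads or none at every time point, and a change within that range was not detectable at this depth.

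The laminin chains Lama1, Lamb1 and Lamc1, which assemble into the laminin of the early embryo, rose from unlike levels to similar ones. Lama1 (alpha 1 chain, chr17:67697259-67822647) held 519, 727, 787 and 755 normalized counts at 0 h, 36506, 42289, 72967 and 74939 after 48 h, and 69235, 63783, 98823 and 88991 after 96 h. Lamb1 (beta 1 chain, chr12:31265234-31329644) held 428, 444, 393 and 425 at 0 h and 39553, 42492, 56628 and 58549 after 48 h. Lamc1 (gamma 1 chain, chr1:153218922-153332786) already held 3521, 4909, 7494 and 7891 at 0 h, and 40399, 44622, 71718 and 73641 after 48 h. For each of the 3 chains the 0 h and 48 h samples did not overlap, and replicates 3 and 4 were the higher set at 48 h. On the log2 scale the 48 h samples differed from 0 h by 6.29 ± 0.22 for Lama1, 6.84 ± 0.11 for Lamb1 and 3.30 ± 0.22 for Lamc1 (limma adjusted p of 1.1e-20, 5.4e-29 and 3.0e-14). Lama1 and Lamb1 were called from 8 h on, at 2.17 ± 0.22 and 3.14 ± 0.11, and Lamc1 from 24 h on, at 2.38 ± 0.22. At 8 h Lama1 changed by 2.38 within replicates 1 and 2 and by 1.96, under the 4-fold limit, within 3 and 4.

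The ratios between these chains moved toward 0 on the log2 scale. The log2 ratio of Lama1 to Lamc1 went from -3.04 ± 0.33 at 0 h to -0.04 ± 0.08 after 48 h (SD, n = 4), a difference of 2.99 (exact permutation test, two-sided p = 0.029, the smallest that 4 against 4 samples allow, adjusted p = 0.049). It was 2.65 within replicates 1 and 2 and 3.34 within 3 and 4. Lamb1 to Lamc1 went on that scale from -3.74 ± 0.59 to -0.19 ± 0.17, a difference of 3.55 (exact p = 0.029, adjusted p = 0.049). From 48 to 96 h neither ratio was called, with differences of -0.16 (exact p = 0.23, adjusted p = 0.27) and -0.18 (exact p = 0.086, adjusted p = 0.11). Per kilobase of exon, the level of Lama1 was 0.106 ± 0.0236 of that of Lamc1 at 0 h and 0.830 ± 0.0478 after 48 h, and that of Lamb1 was 0.0664 ± 0.0276 and 0.733 ± 0.0840.

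**Figure D3:**
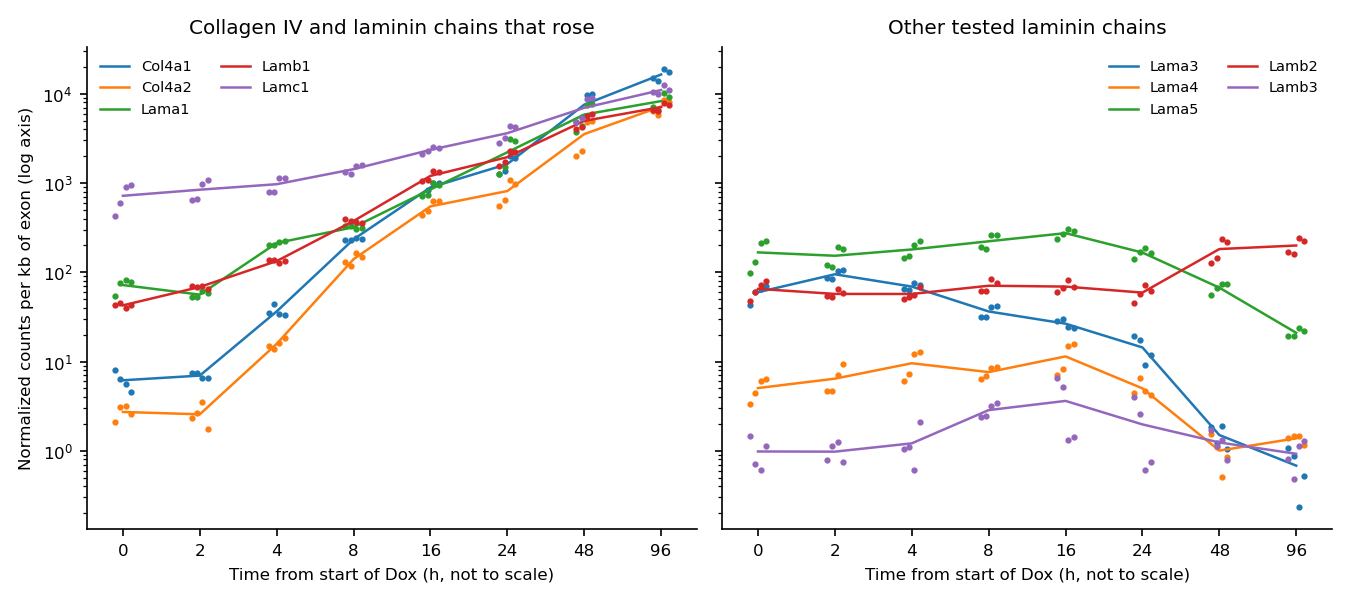
Normalized counts per kilobase of exon (log axis) over time for the collagen IV and laminin chains that rose (left) and the other tested laminin chains (right), with dots for samples and lines through the means of 4. On the left Lamc1 starts at 719.8 per kilobase and the other 4 chains at or below 72 (Lama1), and at 96 h the lowest mean is 7097 (Lamb1), while Lama3, Lama4 and Lama5 on the right end below their 0 h means.

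The other tested alpha chains were called lower at 48 h, after 96 h or at both. Lama5, the alpha chain of a laminin that ES cells are known to make, held 1121, 1492, 2419.6 and 2582 normalized counts at 0 h, 627, 754, 849 and 836 after 48 h, and 218, 218, 272 and 249 after 96 h. Its highest mean was at 16 h, 3129 ± 355, and the 96 h samples lay below every other sample of the course. On the log2 scale Lama5 moved from 0 h by -1.24 ± 0.20 at 48 h, under the 4-fold limit, and -2.91 ± 0.20 after 96 h (limma adjusted p = 6.7e-14). As a log2 ratio, Lama5 to Lama1 went from 1.38 ± 0.37 at 0 h to -6.14 ± 0.36 after 48 h and -8.37 ± 0.15 after 96 h (SD, n = 4). The steps of -7.53 and -2.22 each had an exact two-sided p of 0.029 (adjusted p = 0.049), with no overlap of samples. The first step was -6.91 within replicates 1 and 2 and -8.15 within 3 and 4.

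Lama3, the alpha chain of the laminin that anchors the epidermis, held 459.6, 653, 707 and 752 normalized counts at 0 h, 19.8, 13.2, 20.2 and 11.4 after 48 h, and 11.7, 9.47, 2.51 and 5.67 after 96 h. The 48 h samples lay far below the 0 h samples. Its fall was called from 24 h on, at -2.09 ± 0.26, and reached -5.25 ± 0.26 at 48 h and -6.41 ± 0.26 after 96 h on the log2 scale (limma adjusted p of 7.6e-08, 5.2e-17 and 2.2e-19). The 24 h call did not hold within replicates 1 and 2 (-1.47, against -2.70 within 3 and 4) or without 24 h replicate 3 (-1.89), and at 96 h the sets gave -5.57 and -7.24. Lama4, an alpha chain known from vessels and muscle, held 40, 53.7, 72.5 and 77.4 normalized counts at 0 h and 18.8, 13.2, 6.16 and 10.3 after 48 h. Those groups did not overlap, and the log2 fold change was -2.29 ± 0.30 (limma adjusted p = 6.7e-08), with -1.50 within replicates 1 and 2 and -3.08 within 3 and 4. The Lama4 call was lost with a pseudocount of 5 in place of 1 (-1.96) and on the deposited values (-1.94), and at 96 h Lama4 was not called (-1.77 ± 0.30).

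The beta chains other than Lamb1 were not called at any time. Lamb2, which takes the place of Lamb1 in laminins of mature kidney and synapse, held 293, 368, 440.1 and 485 normalized counts at 0 h and 769.8, 869, 1451 and 1343 after 48 h. The groups did not overlap, but the log2 fold change of 1.45 ± 0.18 was under the 4-fold limit. The log2 ratio of Lamb2 to Lamb1 went from -0.12 ± 0.36 at 0 h to -5.51 ± 0.18 after 48 h and -5.87 ± 0.15 after 96 h (SD, n = 4). The steps of -5.39 and -0.37 each had an exact p of 0.029 (adjusted p = 0.049). Lamb3, a partner of Lama3, had means between 6.13 and 24 normalized counts. Lama2 and Lamc3 were not tested, with at most 7 and 3 reads in any sample.

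**Figure D4:**
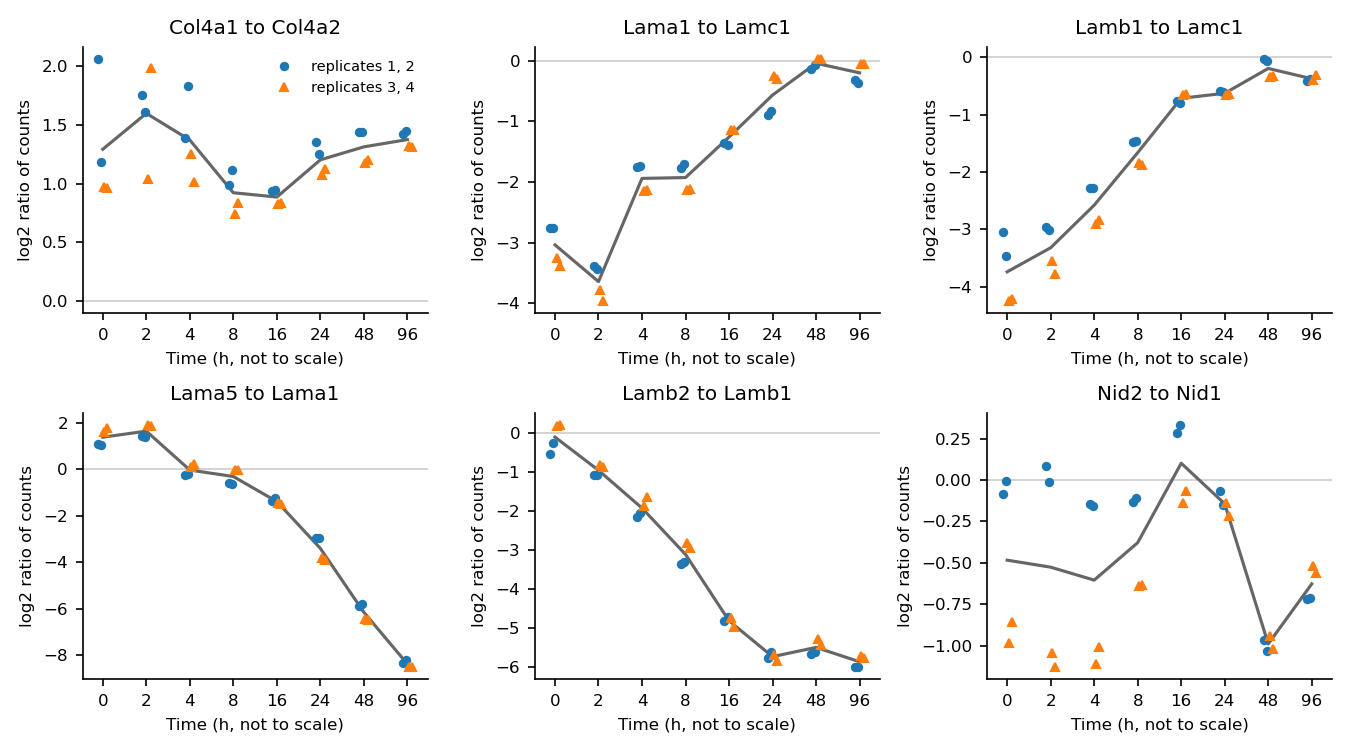
Log2 ratio of normalized counts for 6 pairs of chains or linkers over time, with circles for replicates 1 and 2, triangles for replicates 3 and 4 and a line through the mean of 4. The ratios of Lama1 and Lamb1 to Lamc1 come near 0 by 48 h, and those of Lama5 to Lama1 and Lamb2 to Lamb1 lie at -8.37 and -5.87 at 96 h.

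Among the proteins that link and fill the network, Hspg2 and Sparc were called higher by 48 h, Nid1 by 96 h, and Fn1 and Col18a1 lower. Nid2 rose by 96 h to just under the 4-fold limit. Hspg2 encodes perlecan, the main heparan sulfate proteoglycan of basement membranes. It held 745, 1154, 1467 and 1503 normalized counts at 0 h, 6575, 7935, 20415 and 20392 after 48 h, and 8516, 7571, 15497 and 14079 after 96 h. The 48 h samples lay above all 0 h samples and split by replicate set, and they overlapped the 96 h samples. Against 0 h, Hspg2 differed on the log2 scale by 3.37 ± 0.32 at 48 h (limma adjusted p = 1.3e-10), with 2.96 within replicates 1 and 2 and 3.78 within 3 and 4. Hspg2 was called from 16 h on, at 2.01 ± 0.32, a call lost within replicates 3 and 4 (1.96) and without 0 h replicate 1 (1.79), 16 h replicate 3 (1.91) or 16 h replicate 4 (1.92). Sparc, a collagen-binding protein known to be abundant in parietal endoderm, held 3335, 3533, 5101 and 5039 at 0 h and 103641, 100731, 124296 and 124264 after 96 h, with no overlap. It was called from 24 h on, and its log2 fold change was 3.96 ± 0.22 at 48 h and 4.76 ± 0.22 after 96 h (limma adjusted p of 6.8e-16 and 4.6e-18).

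Nid1 and Nid2 encode nidogens, which bridge laminin and collagen IV. Nid1 held 1406, 1809.9, 3908 and 3847 normalized counts at 0 h, 1767, 2063, 2888 and 2860.5 after 24 h, and 9995, 9602, 12594 and 11988 after 96 h. The 24 h samples lay within the 0 h range and the 48 and 96 h samples above it. At 48 h Nid1 held 4534, 4925, 7984 and 8323, a log2 change of 1.32 from 0 h, under the 4-fold limit. Its log2 fold change at 96 h was 2.14 ± 0.33 (limma adjusted p = 8.4e-07), with 2.62 within replicates 1 and 2 and 1.66 within 3 and 4. That call was lost within replicates 3 and 4 and without 0 h replicate 1 (1.87) or 2 (1.99). Nid2 held 1328, 1799.7, 1974 and 2123 at 0 h and 6089, 5859, 8799 and 8119.9 after 96 h, with no overlap, and its log2 fold change of 2.00 ± 0.17 was just under the 4-fold limit before rounding. The log2 ratio of Nid2 to Nid1 was -0.48 ± 0.51 at 0 h, -0.99 ± 0.04 after 48 h and -0.63 ± 0.10 after 96 h (SD, n = 4). Its step from 48 to 96 h, 0.36, was called (exact p = 0.029, adjusted p = 0.049), and the step from 0 to 48 h, -0.51, was not (exact p = 0.086, adjusted p = 0.11), being -0.95 within replicates 1 and 2 and -0.06 within 3 and 4. In the annotation 8.45% of the exon bases of Nid2 also lie in Rtraf, and how the counting used strand is not given in the sources used here.

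Fn1 encodes fibronectin, a matrix protein that lies beside basement membranes, and had its highest mean at 0 h. It held 6659.6, 10370.2, 16101 and 17418 normalized counts at 0 h, 1823, 2047, 2276 and 2089.9 after 24 h, and 805, 682, 879.9 and 811 after 96 h, and these groups did not overlap. The log2 change of Fn1 from 0 h was -2.52 ± 0.24 at 24 h, -3.23 ± 0.24 after 48 h and -3.90 ± 0.24 after 96 h (limma adjusted p of 2.2e-10, 4.2e-13 and 3.0e-15). At 24 h the sets gave -2.10 (replicates 1 and 2) and -2.94 (3 and 4) for Fn1. Col18a1, whose product is a proteoglycan collagen and the source of endostatin, held 857, 1018, 434 and 425 at 0 h, 174, 168, 145 and 128 after 48 h, and 45.6, 55.7, 72.8 and 78.5 after 96 h. Replicates 1 and 2 were the higher set at 0 h, and the 3 groups did not overlap. On the log2 scale Col18a1 moved from 0 h by -2.05 ± 0.26 at 48 h (limma adjusted p = 3.2e-08), a call lost within replicates 3 and 4 (-1.65) and without 0 h replicate 1 (-1.90), 0 h replicate 2 (-1.82) or 48 h replicate 4 (-1.96). At 96 h it was -3.34 ± 0.26 (limma adjusted p = 6.7e-13).

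Agrn, which encodes the proteoglycan agrin, was not called at any time. Its means lay between 2156 and 2902 normalized counts over the 8 time points, and its log2 fold change was 0.41 ± 0.11 at 48 h and 0.02 ± 0.11 after 96 h. Col15a1, a collagen of the outer basement membrane zone, was not tested, with at most 10 reads in any sample.

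The receptors Dag1 and Ddr1 were not called at any time either. Dag1 encodes dystroglycan, which binds laminin at the cell surface. It held 1275, 1728, 1966 and 2108 normalized counts at 0 h, 1738, 1882, 1702 and 1772 after 48 h, and 1237, 1205, 1336 and 1203 after 96 h. The 48 h values lay inside the 0 h range, and the log2 fold change of 0.03 ± 0.10 changed sign, to -0.11, when counts were scaled by reads on genes. Ddr1, a receptor tyrosine kinase that binds collagen, held 77.3, 82.2, 69.3 and 69.9 normalized counts at 0 h, 272, 263, 216 and 171 after 2 h, 86.5, 105, 122 and 78.3 after 24 h, and 231, 188, 306 and 271 after 96 h. The 2 h and 96 h samples lay above every 0 h sample, and the 24 h samples overlapped the 0 h samples. Against 0 h, Ddr1 differed on the log2 scale by 1.59 ± 0.15 at 2 h (limma adjusted p = 8.8e-10), where no other tested gene of the 34 changed by more than 1, and 1.71 ± 0.15 after 96 h (limma adjusted p = 1.8e-11), both under the 4-fold limit.

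Collagen chains are modified and folded in the endoplasmic reticulum before secretion, and 8 listed genes serve this or crosslinking. Of these, 7 were tested, and all 7 were called higher at both 48 h (8.48% of tested genes) and 96 h (9.28%). Serpinh1 encodes HSP47, the collagen chaperone. It held 948, 1003, 739.9 and 748 normalized counts at 0 h, 637, 622, 569 and 559.8 after 2 h, and 34687, 34085, 44547 and 44217 after 48 h. The 2 h samples lay below all 0 h samples and the 48 h samples above them. The log2 change of Serpinh1 from 0 h was -0.51 ± 0.12 at 2 h (limma adjusted p = 0.0013, under the 4-fold limit), 3.06 ± 0.12 after 16 h, when it was first called, and 5.52 ± 0.12 after 48 h (limma adjusted p = 1.4e-25). The 48 h change was 5.14 within replicates 1 and 2 and 5.90 within 3 and 4. Its 48 h mean was 86.6% of its 96 h mean, against 45.9% for Col4a1.

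P4ha1 and P4ha2 encode catalytic subunits of prolyl 4-hydroxylase, which stabilises the collagen triple helix. P4ha1 held 112, 105, 161 and 123 normalized counts at 0 h, 3494, 3633, 3631 and 3729 after 24 h, and 11345, 11532, 13608 and 14196 after 96 h. Those groups did not overlap, and the 24 h samples lay close together. P4ha1 was called from 16 h on, and its log2 fold change reached 5.71 ± 0.14 at 48 h (limma adjusted p = 6.0e-25). P4ha2 held 11, 14.9, 44.3 and 20.8 at 0 h, 9.89, 2.42, 61.7 and 71.9 after 4 h and 3085, 3120.4, 4859 and 4827 after 48 h. At 4 h replicates 3 and 4 lay far above 1 and 2, and at 48 h every sample lay above every 0 h sample. The log2 fold change of P4ha2 was 7.54 ± 0.73 at 48 h (limma adjusted p = 2.0e-10).

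The lysyl hydroxylases Plod1, Plod2 and Plod3, whose products allow collagen to be glycosylated and crosslinked, were called later. Plod2 held 431, 433, 471 and 468 normalized counts at 0 h, 7979, 7769, 8296 and 8851 after 48 h, and 15943, 16079, 19051 and 19309 after 96 h, with no overlap. It was called from 24 h on, and its log2 fold change was 4.19 ± 0.10 at 48 h and 5.28 ± 0.10 after 96 h (limma adjusted p of 1.9e-25 and 3.1e-28). Plod1 was first called at 48 h, at 2.47 ± 0.11, going from 226 ± 40 to 1248 ± 137 normalized counts (SD, n = 4). Plod3 was also first called then, at 2.33 ± 0.16, going from 365 ± 36.9 to 1903 ± 584. In the annotation 11.9% of the exon bases of Plod3 and 6.42% of those of Plod2 also lie in other genes.

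Loxl2, a lysyl oxidase that crosslinks collagen IV, had few reads at first. It held 4.14, 6.79, 2.42 and 3.78 normalized counts at 0 h, from 2 to 10 reads a sample, 25.2, 32.5, 18.3 and 13 after 24 h, 255, 226, 244 and 267 after 48 h, and 2219, 2214, 3115 and 2893 after 96 h. These 4 groups did not overlap, and the 24 h mean was 0.853% of the 96 h mean. It was called from 16 h on, at 2.02 ± 0.33, and stood at 2.13 ± 0.33 at 24 h. The 16 h call was lost without 0 h replicate 3 or 4 or 16 h replicate 1 or 2 (1.83 to 1.99), and the 24 h call without 0 h replicate 3 (1.94) or 24 h replicate 2 (1.93). Loxl2 rose on the log2 scale by 3.49 ± 0.33 from 24 to 48 h and 3.38 ± 0.33 from 48 to 96 h (limma adjusted p of 4.8e-10 and 1.1e-09). Lox, the founding member of that family, was not tested, with at most 3 reads in any sample.

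**Figure D5:**
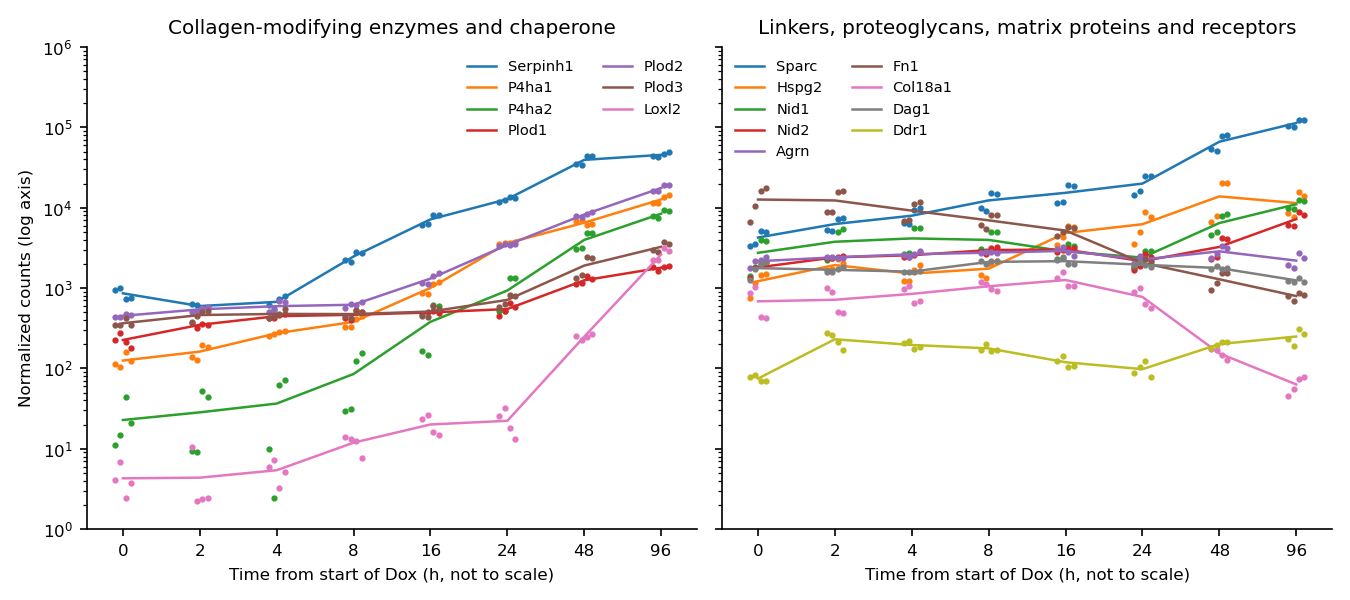
Normalized counts (log axis) over time for the 7 tested collagen-modifying genes (left) and the tested linkers, proteoglycans, matrix proteins and receptors (right), with dots for samples and lines through the means of 4. On the left Serpinh1 has the highest mean at every time and Loxl2 stays at or below 32.5 in every sample to 24 h, and on the right Sparc rises while Fn1 and Col18a1 fall.

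Per kilobase of exon at 96 h, the level of Sparc was the highest of the 34 at 29893 ± 3382 normalized counts per kilobase, with all its samples above those of the next gene. Serpinh1 at 18615 ± 1198 and Col4a1 at 16459.5 ± 2273 followed, and their samples overlapped. Lamc1 (11014 ± 1074), Lama1 (8285 ± 1701), Col4a2 (7198 ± 1312) and Lamb1 (7097 ± 744) came next, each overlapping its neighbour in that order. Plod2 (3263 ± 340.0) and P4ha1 (3079.8 ± 351) overlapped each other below them (SD, n = 4).

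A wider list of 62 other basement membrane genes, also chosen with earlier results of these data known, was counted for context. Of these, 61 were in the table and 52 were tested. At 48 h against 0 h, 15 of the 62 were higher and 7 lower, beside 8.48 and 7.09% of all tested genes. P3h2, a collagen prolyl 3-hydroxylase, had 1 read in all 0 h samples together and 305 ± 79.3 normalized counts at 48 h, at least 85.4-fold higher than a floor of 3 reads a library. Bgn, the small proteoglycan biglycan, also had 1 read at 0 h and 162 ± 43.2 normalized counts after 48 h, at least 45.5-fold higher than that floor. Timp3, a matrix-bound inhibitor of metalloproteinases, went from 6.83 ± 3.42 to 867 ± 151, which is 6.93 ± 0.28 on the log2 scale (limma adjusted p = 3.0e-19). Pxdn, the peroxidase that forms sulfilimine crosslinks in collagen IV, went from 37.5 ± 7.04 to 1662 ± 345, which is 5.43 ± 0.13 on the log2 scale (limma adjusted p = 5.4e-25). Among those called lower, Ntn1 (netrin 1) went from 873 ± 352 to 7.37 ± 1.77 and Egfl6 from 252 ± 28.1 to 8.40 ± 3.93 normalized counts (SD, n = 4).

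Markers of derivatives of PrE and of other cell types moved over the same interval. The summed level of 4 parietal endoderm markers ran from 436 to 651 normalized counts at 0 h, 3564 to 5355 after 48 h and 11792 to 12555 after 96 h, with 3 of 4 called higher at both 48 and 96 h. Fst held most of the sum at 0 h and was the marker not called, at 535 ± 121, 512 ± 146 and 2010 ± 137 at these times. Pth1r held most of the sum after 48 h, at 3422 ± 632 (SD, n = 4). The sum of 5 visceral endoderm markers ran from 2.76 to 7.55 at 0 h, 16345 to 39292 after 48 h and 13740.3 to 21809.7 after 96 h. Of these, 3 of 5 were called higher, with Cubn holding most of the sum, and Afp and Apoa1 at no more than 6 reads in any 48 h or 96 h sample. Of 5 endothelial markers, 1 was called higher at both 48 and 96 h, their sum ran from 60.7 to 103 at 0 h, 65.9 to 191 after 48 h and 526 to 719 after 96 h, and Emcn was at 0 in all 32 samples. The endothelial marker called was Cdh5, which went from 0.170 ± 0.340 at 0 h to 95.1 ± 46.9 after 48 h and 379 ± 63.7 after 96 h. Tek, which was not called, went from 70.2 ± 11.2 to 17.3 ± 4.35 and 235 ± 41 (SD, n = 4). Of 5 trophoblast markers 2 were called higher at both 48 and 96 h and 1, Tfap2a, lower at 96 h, and their sum ran from 87 to 113 at 0 h, 121 to 260.1 after 48 h and 116 to 420.2 after 96 h. The part of these cell types, or of fibroblasts, in the matrix gene levels was not tested.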

How the data were processed

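RNA was measured by single-end sequencing of polyadenylated, stranded libraries in 32 samples. Per the study's methods, the authors checked reads with FastQC 0.11.8, trimmed them with cutadapt 2.7, aligned them with HISAT2 2.1.0 to GRCm38.p6 and counted them per gene with featureCounts (Subread 1.6.4). The deposited values are log2-scale values that the authors made with the variance-stabilizing transformation of DESeq2. The transformation was inverted, and 100% of values came out as whole reads within a tolerance of 0.0001.

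Normalized counts plus 1 were taken to the log2 scale, genes with 10 normalized counts in at least 4 samples were kept, and limma 3.58.1 (limma-trend, R 4.3.3) was fitted over all 32 samples with Benjamini-Hochberg adjustment over 15227 genes. It was also run on simulated independent counts with a common spread and no replicate sets. That run does not test how it handles replicate sets like those seen here. Log2 ratios were compared by two-sided exact permutation tests, adjusted over 12 tests. Tables were made with Python 3.11.15, pandas 2.3.3 and scipy 1.17.1. Replicates are those of the labels. Depth, from 3190108 to 12301732 reads on genes, limits genes with few reads, and floors (3 reads) cover counting error only. The SDs and SEs come from the spread between samples. Alternatives were pseudocounts of 0.5 and 5, other scalings, no filter or a mean of at least 50, FDR below 0.05, a 2-fold limit, limma-voom on whole reads, the deposited values, only the time points compared, each replicate set, a replicate block, and each replicate left out.

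The members and lists were chosen with earlier results of these data known. Every tested member is named, and of the wider list the text names the up to 4 largest rises and falls called at 48 h against 0 h whose higher group averaged 100 or more and whose samples did not overlap, a rule that 3 falls met, 1 of which is not reported here. Per kilobase values divide by the annotated exon length.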

Additional observations from a re-analysis of the deposited data

Results flagged for a closer look

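Among 199 groups of 4 samples (1 gene at 1 time point, with a mean of at least 10 normalized counts), 3 held a sample whose gap to the nearest other, divided by the range of the group (both on the log2 scale), passed Dixon's 95% limit, and chance passes it in about 1 of 20 groups. Col4a1 at 4 h stood at 329 normalized counts in replicate 2, against 248 to 258 in the other samples. Dag1 at 8 h stood at 1966 in replicate 2, against 2148 to 2176. Plod3 at 0 h stood at 419.9 in replicate 3, against 344 to 349.9.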

How the results depend on the processing

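Counts of called genes moved by over 1.5 times with a 2-fold limit (log2 fold change of at least 1), within a replicate set and with single replicates left out. Against 0 h the 2-fold limit gave 1 higher at 2 h, 6 after 4 h, 13 after 8 h, and 15 higher with 2 lower at 16 h. Between successive times it gave 6 higher from 4 to 8 h, 9 from 8 to 16 h, 3 higher and 2 lower from 16 to 24 h, 15 higher from 24 to 48 h, and 5 higher and 3 lower from 48 to 96 h. Within replicates 1 and 2, 1 gene was lower at 24 h (Fn1, with Lama3 lost), 1 rose from 16 to 24 h and 2 rose from 24 to 48 h, and within replicates 3 and 4, 3 rose from 8 to 16 h. With single replicates left out, the genes lower at 24 h numbered 1 to 2 (1 without 24 h replicate 3), those that rose from 8 to 16 h 0 to 3, and those that rose from 24 to 48 h 2 to 4. The shares of all tested genes under these alternatives are not given here. Those given above are for the 4-fold limit over all samples, so these counts describe the list alone.

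The change of Dag1 from 0 to 48 h turned negative when scaled by reads on genes (-0.11), within replicates 3 and 4 (-0.23), without 0 h replicate 1 (-0.12) and without 48 h replicate 2 (-0.0008), with a range of -0.12 to 0.12 over samples left out. That of Lamb3 from 48 to 96 h was 0.21 within replicates 3 and 4. That of Hspg2 from 48 to 96 h was 0.15 within replicates 1 and 2 and ran from -0.45 to 0.09 with samples left out. The log2 ratio of Col4a1 to Col4a2 changed by -0.0030 from 0 to 48 h with a pseudocount of 0.5. Within replicates 1 and 2 and within 3 and 4, the ratio of Lama1 to Lamc1 changed by 2.65 and 3.34 from 0 to 48 h, Lamb1 to Lamc1 by -0.35 and -0.01 from 48 to 96 h, Lama5 to Lama1 by -6.91 and -8.15 from 0 to 48 h, and Nid2 to Nid1 by -0.95 and -0.06 from 0 to 48 h. The cause of these differences was not tested. Scaling by reads on genes moved the median change of all tested genes by -0.13 at 48 h and -0.26 at 96 h against 0 h. Then 14 of the 34 genes were called higher and 5 lower at 96 h, beside 1217 and 1798 of all 15227 tested genes. With scaling by a trimmed mean of ratios (TMM), 16 were called higher and 4 lower at 96 h, beside 1464 and 1535 of all tested genes.

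Samples with the same replicate number deviated together no more than those with the other number of their set (mean correlation 0.196 for both), so the numbers mark only the set. A fit with the replicate block gave 14 genes higher and 4 lower at 48 h and changed 0 of 338 calls over the tested genes and 13 comparisons. Depth limits the 8 untested genes.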
